A study of Homo sapiens with 6 samples.

Results

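Long intergenic noncoding RNAs (lincRNAs) were examined here in TC32, a line of Ewing sarcoma cells, after siRNA against either partner gene of the EWSR1-FLI1 fusion. The deposited files listed 916 genes under a LINC symbol without an antisense suffix, and 114 of them (12.4%) are described. These 114 were chosen by their measured level: an FPKM of 1 or more in at least 2 of the 6 libraries. FPKM is the number of sequenced fragments scaled to transcript length and to the mapped fragments of the library, so levels of different genes are on a per-length scale. Of the other LINC genes, 312 were listed at 0 in all 6 libraries and 490 were above 0 without reaching the threshold.

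All cells were TC32, with 2 libraries in each of 3 groups, 48 h after transfection. The groups are named siNeg for the control siRNA, siEWSR1 for siRNA that targets EWSR1, and siFLI1 for siRNA that targets FLI1. TC32 is 1 cell line, and the labels do not say whether the libraries of a group were grown separately. The p-values here therefore rest on the spread between libraries alone, which may be technical. The labels do not give the position of either siRNA in its target, and gene-level FPKM adds fragments of the normal alleles to those of the fusion transcript. EWSR1 read 46.5 and 47.2 FPKM with siNeg, 34.6 and 32.3 in the siEWSR1 libraries, and 51.2 and 50.2 in the siFLI1 libraries. The level of FLI1 was 10.9 and 10.9 with siNeg, 10.4 and 10.6 with siEWSR1, and 8.98 and 8.56 with siFLI1, so each targeted gene was lowest in its own group. Of 10 Ewing sarcoma markers, 9 reached 1 FPKM in at least 1 library. Their summed FPKM was 1043 and 1064 with siNeg, 629 and 516 with siEWSR1, then 600 and 553 with siFLI1, so it was lower in all 4 libraries treated against a partner. Fragment numbers were not in the files, and the width of the deposited 95% intervals implied 15159081 to 16298379 fragments a library.

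LincRNAs are transcribed from their own genes between protein-coding genes, usually capped, spliced and polyadenylated, and are often present at lower levels than mRNAs. Some act near their own locus on a neighbouring gene, others act as scaffolds or bind proteins or microRNAs, and some loci first named as noncoding were later found to encode short proteins. The fusion protein EWSR1-FLI1 joins part of EWSR1 to the DNA-binding domain of FLI1, a factor of the ETS family, which bind a GGAA core, and the fusion is known for binding repeats of GGAA and single ETS sites in Ewing sarcoma cells.

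Because the fusion is known for GGAA binding, the start regions of the lincRNAs were searched for it. RefSeq gave a window from 250 bases before to 50 bases after the start (GRCh38.p14) for 86 of the 114 lincRNAs. The starts come from RefSeq and may differ from those of the hg19 annotation behind the deposited values, and motifs were searched on both strands. A single GGAA is common: it occurred in 82 of the 86 lincRNA windows (95.3%) and in 33519 of 35116 windows of all genes (95.5%), with a median of 4 and 3 occurrences. On the log2(FPKM + 0.5) scale used below, LINC00673 had the largest rise and LINC01547 the largest fall. The window of LINC00673 (minus strand, chr17:72592755-72593054) held 5, and that of LINC01547 (minus strand, chr21:44939864-44940163), held 6. Both are printed 5′ to 3′ on the strand of the gene, with each GGAA, or TTCC where it lies on the other strand, in capitals.
LINC00673: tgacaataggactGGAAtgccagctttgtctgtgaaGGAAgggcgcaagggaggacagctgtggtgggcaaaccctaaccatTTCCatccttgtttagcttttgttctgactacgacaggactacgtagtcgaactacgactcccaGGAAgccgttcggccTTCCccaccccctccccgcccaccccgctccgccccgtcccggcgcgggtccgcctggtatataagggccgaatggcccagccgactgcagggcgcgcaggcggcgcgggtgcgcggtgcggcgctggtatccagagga
LINC01547: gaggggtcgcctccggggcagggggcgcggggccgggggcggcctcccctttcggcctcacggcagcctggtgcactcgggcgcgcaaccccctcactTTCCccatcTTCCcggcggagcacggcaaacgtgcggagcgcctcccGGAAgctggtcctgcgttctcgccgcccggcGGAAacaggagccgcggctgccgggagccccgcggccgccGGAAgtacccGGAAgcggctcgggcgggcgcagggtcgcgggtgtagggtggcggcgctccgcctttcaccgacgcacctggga

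GGAA directly followed by a second one, GGAAGGAA, occurred in 5 lincRNA windows (5.81%) and in 1290 of all windows (3.67%). A run of 3 GGAA occurred in 0 of the 86 lincRNA windows and in 30 of all windows (0.0854%). This run also counts as GGAAGGAA. The windows with GGAAGGAA were those of LINC00176, LINC00189, LINC00339, LINC00545 and LINC00920. LINC00545 and LINC00339 were lower with both siRNAs, LINC00920 was higher with both, LINC00176 was higher with siEWSR1, and LINC00189 was higher with siFLI1. After quantile normalization of the libraries, LINC00920 turned to log2 changes of -0.04 and -0.22, LINC00176 was no longer called with siEWSR1 (0.20, adjusted p 0.21), and LINC00189 stood at 0.07 with siFLI1. The 3 windows shown lie on the plus strand at chr13:30882312-30882611 (LINC00545), chr1:22024941-22025240 (LINC00339) and chr20:64035932-64036231 (LINC00176, which RefSeq now names C20orf204), and capitals mark GGAAGGAA or its reverse complement.
LINC00545: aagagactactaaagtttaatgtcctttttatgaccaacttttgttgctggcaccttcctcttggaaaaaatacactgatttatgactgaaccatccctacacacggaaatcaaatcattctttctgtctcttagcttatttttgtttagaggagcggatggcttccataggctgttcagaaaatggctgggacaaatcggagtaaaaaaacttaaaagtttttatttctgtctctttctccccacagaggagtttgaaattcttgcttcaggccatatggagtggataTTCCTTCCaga
LINC00339: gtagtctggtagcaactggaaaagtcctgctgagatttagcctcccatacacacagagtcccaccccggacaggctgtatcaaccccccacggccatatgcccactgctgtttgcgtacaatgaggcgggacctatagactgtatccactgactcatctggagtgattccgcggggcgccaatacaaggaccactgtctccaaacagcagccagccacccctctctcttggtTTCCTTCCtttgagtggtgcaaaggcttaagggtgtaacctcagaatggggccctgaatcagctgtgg
LINC00176: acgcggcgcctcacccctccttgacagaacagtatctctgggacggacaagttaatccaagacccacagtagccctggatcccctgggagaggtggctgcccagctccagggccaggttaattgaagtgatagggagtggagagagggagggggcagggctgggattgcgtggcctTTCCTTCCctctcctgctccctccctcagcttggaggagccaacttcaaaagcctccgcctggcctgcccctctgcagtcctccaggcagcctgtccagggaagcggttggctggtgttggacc

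The longer ETS site ACCGGAAGT occurred in 2 lincRNA windows (2.33%), those of LINC00493 and LINC00909, and in 351 of all windows (1%). LINC00493 was lower and LINC00909 higher with both siRNAs. The LINC00493 window (plus strand, chr20:18567182-18567481, named SMIM26 by RefSeq) belongs to a locus that RefSeq lists as protein-coding and that had the highest mean over the 6 libraries, and capitals mark the site.
LINC00493: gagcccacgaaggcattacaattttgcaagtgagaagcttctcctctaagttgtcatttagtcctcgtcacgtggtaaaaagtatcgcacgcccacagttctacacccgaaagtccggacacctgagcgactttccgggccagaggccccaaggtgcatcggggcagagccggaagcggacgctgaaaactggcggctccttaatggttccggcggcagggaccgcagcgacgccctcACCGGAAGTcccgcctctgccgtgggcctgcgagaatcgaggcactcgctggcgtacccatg

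A match is a run of letters in 1 window. No binding was measured here, and the lincRNAs with a match included both higher and lower ones.

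The lincRNAs were mostly low. The median of their mean level over the 6 libraries was 2.13 FPKM, against 8.78 for all 13043 genes tested. Of the 114, 13 had a mean of 10 FPKM or more, 29 a mean of 5 or more, and 54 a mean under 2, and 66 reached 1 FPKM in all 6 libraries. Together they held 0.191% to 0.224% of the implied fragments of a library. The number of LINC genes at 1 FPKM or more was 93 in each siNeg library, 98 and 96 with siEWSR1, and 99 and 90 with siFLI1. Between 12079 and 12741 genes of all kinds reached that level in a library.

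**Figure D1:**
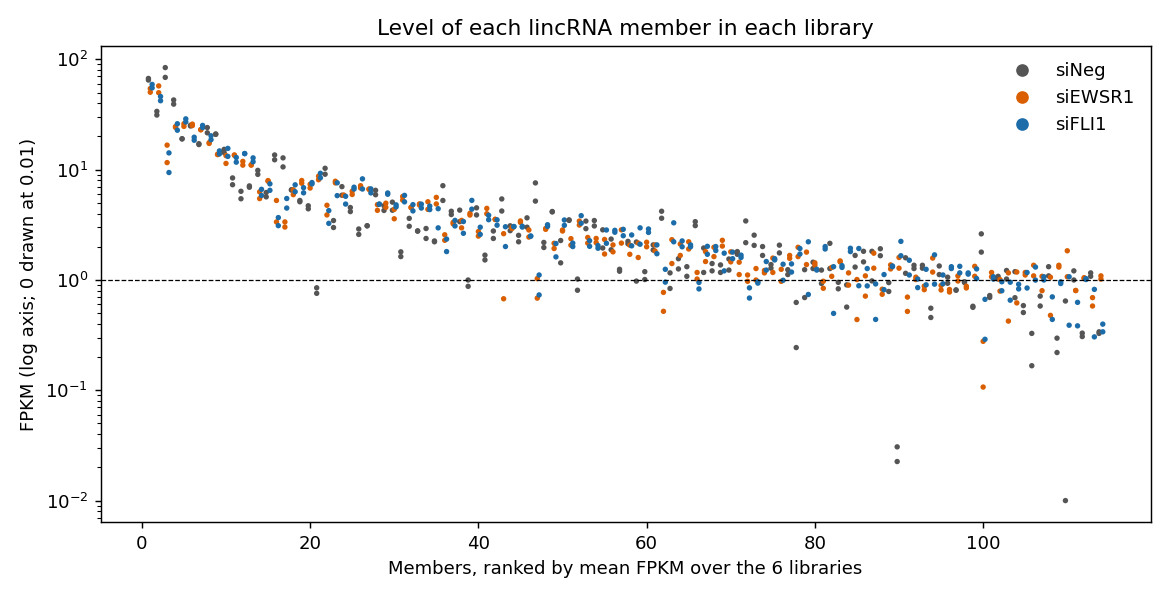
FPKM (log axis) of the 114 lincRNAs in each of the 6 libraries, ordered by their mean; the dashed line marks 1 FPKM and the single value of 0 is drawn at 0.01. The siNeg points stand far above the others at the third rank, LINC01547, and far below at rank 21, LINC00673.

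The 8 most abundant lincRNAs held 49.2% and 49% of the summed lincRNA FPKM with siNeg, 43% and 42.1% with siEWSR1, then 40.9% and 41.1% with siFLI1. The share was lower in all 4 libraries treated against a fusion partner, and LINC01547 alone carried most of this. Without it, the other 7 held 42.7% and 40.9% of the rest with siNeg, 41.3% and 40.8% with siEWSR1, then 39.4% and 40.1% with siFLI1, so siEWSR1 overlapped siNeg. LINC00493 (SMIM26, which encodes a short mitochondrial protein) read 67.2 and 65 FPKM with siNeg, 54.4 and 50.4 with siEWSR1, and 55.2 and 59.3 with siFLI1. LINC01605 read 33.8 and 31.3, then 57.5 and 49.9, then 46.1 and 42.2 in the same order of groups, and its siNeg values were the lowest. LINC01547 had the highest single values of all, 68.7 and 84.3 with siNeg, and read 16.7 and 11.6 with siEWSR1 and 14.2 and 9.43 with siFLI1. Neither siRNA group overlapped siNeg for any of these 3.

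LINC00152, known as the cytoskeleton regulator RNA CYTOR, read 42.9 and 39.3 with siNeg, 24.6 and 24.2 with siEWSR1, and 26.1 and 22.8 with siFLI1. LINC01420, which encodes the decapping-complex microprotein NBDY, read 19 and 19.1, then 24.7 and 26.1, then 27.1 and 28.9. LINC00632, whose locus gives rise to the circular RNA CDR1as, read 24.9 and 25.3, then 25.1 and 25.9, then 19.7 and 18.5. The siEWSR1 values of LINC00632 thus lay beside its siNeg values, while its siFLI1 values lay below both. LINC01296 (RefSeq: the transcribed pseudogene DUXAP9) read 16.9 and 17.2, then 23.1 and 23, then 25.2 and 24.1. It has near copies and overlaps DUXAP10, so its fragments cannot be assigned with certainty. LINC01578 (CHASERR, which restrains its neighbour CHD2) read 24.1 and 21.6, then 17.6 and 17.3, then 18.7 and 20.3.

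At the selection threshold, the lincRNAs just inside were LINC00176, LINC00997 and LINC01572. Their values were 0.328 to 1.09 FPKM, 0.793 to 1.08 and 0.384 to 1.21 over the 6 libraries. Just outside were LINC00202-1 with 0.343 to 1 FPKM, LINC00326 with 0.111 to 1.42 and LINC01399 with 0.507 to 1.09. LINC00326 read 1.42 and 0.95 with siNeg and no more than 0.349 in the other 4 libraries. It was thus highest in both siNeg libraries, with 1 of them just under the threshold.

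Changes were tested with limma on log2(FPKM + 0.5), and a gene was called at a Benjamini-Hochberg adjusted p under 0.05 over all 13043 genes tested. With siEWSR1 against siNeg, 45 lincRNAs were called higher (39.5%, against 33.2% of all genes tested) and 32 lower (28.1%, against 31%), while 37 were not called. Of those, 13 rose by at least 2-fold (11.4%, against 7.91%) and 11 fell by at least 2-fold (9.65%, against 4.59%). With siFLI1 against siNeg, 48 were called higher (42.1%, against 35.7%) and 32 lower (28.1%, against 29.6%), while 34 were not called. At least 2-fold changes were 11 rises (9.65%, against 9.32%) and 10 falls (8.77%, against 4.59%). The shares called at any size lay near those of all genes tested, and the widest gap at 2-fold was that of the falls.

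The selection level is also the filter of the test, so a lincRNA that passed it through 1 group had to differ. In all, 18 were under 1 FPKM in both siNeg libraries and 3 in all 4 libraries with siRNA against a partner. The counts are therefore descriptions. The 18 include LINC00673, LINC01279, LINC00965, LINC01091 and LINC01125, and the 3 include LINC00659, all described below. Their tests are not independent of their choice. Among the 97 with a mean of at least 1 FPKM, 37 were higher with siEWSR1 (38.1%, against 32.6% of all genes with such a mean) and 31 lower (32%, against 31.2%). With siFLI1, 41 were higher (42.3%, against 35.2%) and 28 lower (28.9%, against 29.8%). The median log2 change was 0.03 with siEWSR1 and 0.16 with siFLI1, against 0.01 and 0.04 for all genes tested. Both comparisons use the same siNeg libraries, so they are not independent. In bulk RNA, fewer cells of a type and less RNA per cell cannot be told apart.

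The split between higher and lower turned with the scaling. After quantile normalization, which gives all libraries the same distribution of values, 27 lincRNAs were higher with siEWSR1 (23.7%, against 29.7% of all genes tested) and 46 lower (40.4%, against 32.4%). With siFLI1, 27 were higher (23.7%, against 29.8%) and 44 lower (38.6%, against 34.3%). All genes tested thus turned toward lower as well. The median lincRNA change then was -0.20 and -0.16, while that of all genes tested was -0.02 and -0.03. The shift differed with level. For lincRNAs with a mean under 2 FPKM its median was -0.40 with siEWSR1 and -0.45 with siFLI1, and for those at 5 FPKM or more it was -0.05 and -0.07. All genes tested shifted by -0.39 and -0.44 under 2 FPKM and by 0.02 and -0.02 at 5 FPKM or more. Scaling each library by its median ratio left the split at 46 higher and 32 lower, and 48 higher and 32 lower.

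**Figure D2:**
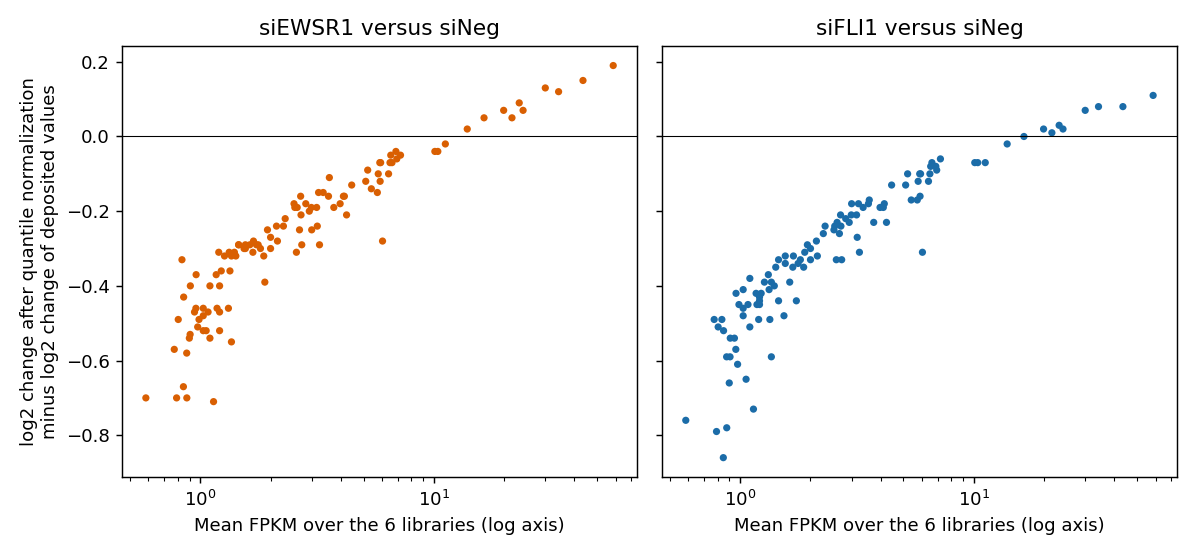
For each of the 114 lincRNAs, the log2 change after quantile normalization minus that of the deposited values, against its mean FPKM (log axis), for each siRNA against siNeg. Points below 0 moved down with quantile normalization, and the lower the level, the larger the shift, with medians of -0.40 and -0.45 under 2 FPKM.

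Among the lincRNAs that rose, LINC00673 had the largest change on the log2(FPKM + 0.5) scale, where the 0.5 added holds down changes from levels near 0. This lincRNA has been studied in pancreatic cancer, lies at chr17:70399463-70588945 (hg19, as are all positions that follow) and read 0.757 and 0.85 FPKM with siNeg, 8.11 and 8.73 with siEWSR1, then 8.44 and 9.28 with siFLI1. The siNeg values were the lowest by far, and the 4 others lay close together. LINC00673 reached the selection level through those 4 alone, so its test is not independent of its choice. Its log2 change was 2.77 (SE 0.08, adjusted p 4.39e-06) with siEWSR1 and 2.84 (SE 0.08) with siFLI1, from 54 and 59 implied fragments in the siNeg libraries and 537 to 588 in the others. The nearest coding gene, SLC39A11, 53140 bases away, changed by 0.36 and 0.39.

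LINC01279 (chr3:112315641-112320816) read 0.0307 and 0.0226 with siNeg, 1.28 and 1.6 with siEWSR1 and, with siFLI1, 1.66 and 2.24. Its log2 changes of 1.87 (SE 0.15) and 2.21 (SE 0.15) understate the difference, since the siNeg values are far below the 0.5 added before taking logs. RefSeq lists LINC01279 as an older name of CCDC80, a coding gene for a secreted matrix protein, which lies 2417 bases away in the files and rose by 3.64 and 3.73. Its fragments and those of CCDC80 may therefore belong to 1 gene. CCDC80 read 0.892 and 0.83 FPKM with siNeg and passed the filter through the other libraries alone, so its test is not independent of the filter either.

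LINC00476 (chr9:98568370-98638259), the antisense gene ERCC6L2-AS1 in RefSeq, read 1 and 0.876 with siNeg, 3.88 and 4.02 with siEWSR1 and, with siFLI1, 5.27 and 4.39. Its log2 changes were 1.63 (SE 0.10) and 1.89 (SE 0.10). It overlaps ERCC6L2, which did not pass the test with either siRNA (log2 changes 0.26 and 0.27). Without a known strand setting, fragments of overlapping genes cannot be told apart.

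LINC00894 and LINC00893 are transcribed beside a duplicated pair of genes, CXorf40B and CXorf40A, on the X chromosome. LINC00894 (chrX:149106766-149185018) read 1.8 and 1.63, then 5.3 and 5.71, then 5.85 and 5.11. LINC00893 (chrX:148609132-148621312) read 1.02 and 0.807, then 3.15 and 3.42, then 3.83 and 3.27. The siNeg values were the lowest for both, by log2 changes of 1.44 and 1.43 for LINC00894 and of 1.42 and 1.52 for LINC00893. Reads shared between the duplicated copies could enter both. The coding neighbours changed little: CXorf40B by -0.20 and -0.08, and CXorf40A by -0.03 and 0.01.

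LINC00965 on chromosome 8, which stands on more than 1 row, read 0.244 and 0.626, then 1.98 and 1.63, then 1.72 and 1.93. Its log2 changes were 1.33 (SE 0.20) and 1.34 (SE 0.20). LINC01091 (chr4:124573940-124851518) read 0 and 0.645, then 1.84 and 1.07, then 0.389 and 1.07, and was called only with siEWSR1 (log2 change 1.34, SE 0.45, adjusted p 0.0365). That call rests on 0 and 7 implied fragments with siNeg, and without siNeg replicate 1 it was 0.74 with an adjusted p of 0.174. It was also lost without siEWSR1 replicate 1 (adjusted p 0.132).

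Of 4 further rises named after their values were seen, LINC01021 is known as PURPL, a lincRNA induced by p53. It read 2.9 and 2.59 with siNeg, 6.82 and 7.16 with siEWSR1, and 8.26 and 6.68 with siFLI1 (log2 changes 1.21 and 1.29). LINC01503 read 5.45 and 6.37, then 11 and 11.9, then 14 and 14 (0.90 and 1.18). LINC00342 read 3.46 and 2.99, then 7.86 and 7.59, then 7.61 and 5.82 (1.14 and 0.95). LINC00174 read 1.52 and 1.68, then 4.46 and 3.99, then 3.86 and 3.52 (1.17 and 1.00). The siNeg libraries were the lowest for all 4.

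LINC01547 had the largest fall on the log2(FPKM + 0.5) scale. It lies at chr21:46353199-46359828 and overlaps the coding gene FAM207A. From the values given above, its log2 change was -2.41 (SE 0.23, adjusted p 0.000226) with siEWSR1 and -2.67 (SE 0.23) with siFLI1, which is 5.31-fold and 6.35-fold lower. It had 1836 and 1945 implied fragments with siNeg and 390 to 689 in the others. The implied fragments thus fell by less than the FPKM, so the size of the fall is uncertain. The reason for this gap was not tested. FAM207A did not pass the test, with log2 changes of -0.08 and 0.17. The rank depends on the scale: after quantile normalization LINC01547 changed by -2.29 and -2.59 and LINC00681 by -2.62 and -2.60. By group means, LINC00659 went from 2.21 FPKM with siNeg to 0.193 with siEWSR1 and LINC00681 from 6.39 to 0.857, larger ratios than from 76.5 to 14.2 for LINC01547.

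LINC00681 on chromosome 8 read 5.19 and 7.59 with siNeg, 1.03 and 0.685 with siEWSR1, and 1.11 and 0.732 with siFLI1 (log2 changes -2.33 and -2.27, SE 0.22 each). Its nearest coding gene, LONRF1, 38760 bases away, fell by 1.45 and 1.57 on the log2 scale. LINC00659 (chr20:61405473-61408208) read 2.62 and 1.79, then 0.278 and 0.107, then 0.668 and 0.29 (-1.96 and -1.48, SE 0.25 each). LINC00545 (chr13:31456699-31457532), which overlaps the antisense gene TEX26-AS1, read 3.63 and 4.2, then 0.772 and 0.52, then 1.25 and 0.956 (-1.95 and -1.47, SE 0.15 each). The siNeg values of all 3 were above all others, but the lower groups rest on few implied fragments. These were 1 to 10 a library for LINC00659 and LINC00545, and 6 to 12 for LINC00681, which also overlaps LOC340357.

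LINC00707 (chr10:6821560-6884868) read 12.8 and 10.6 with siNeg, 3.36 and 3.02 with siEWSR1, and 4.49 and 5.48 with siFLI1. It fell by 1.72 on the log2 scale with siEWSR1 (SE 0.13) and by 1.15 with siFLI1 (SE 0.13), and the 2 siRNA groups did not differ by the test (log2 difference -0.57, adjusted p 0.0604), though they did with a robust variance trend (adjusted p 0.038) or without overlapping genes (adjusted p 0.0346). LINC00706, which lies 418 bases from it, read 1.59 and 1.15, then 0.519 and 0.7, then 1.51 and 1.11. It was called lower with siEWSR1 (-0.75, SE 0.17) and not with siFLI1 (-0.05).

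LINC00403 (chr13:112626624-112762329) is listed by RefSeq as SOX1-OT, a transcript that spans SOX1, a transcription factor of neural progenitors. It read 13.6 and 12.3 with siNeg, 5.26 and 3.36 with siEWSR1, and 3.68 and 3.11 with siFLI1 (log2 changes -1.51 and -1.79, SE 0.19 each). SOX1 itself fell by 1.25 and 1.31 on the log2 scale. LINC00662 (chr19:28281401-28284848), studied in several carcinomas, read 3.38 and 3.11, then 1.02 and 1.17, then 0.95 and 0.83 (-1.23 and -1.43, SE 0.10 each). The siNeg values were the highest for both. LINC00662 overlaps LOC101927151, which was also called lower (-0.79 and -0.66). Without a known strand setting, their fragments cannot be told apart.

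**Figure D3:**
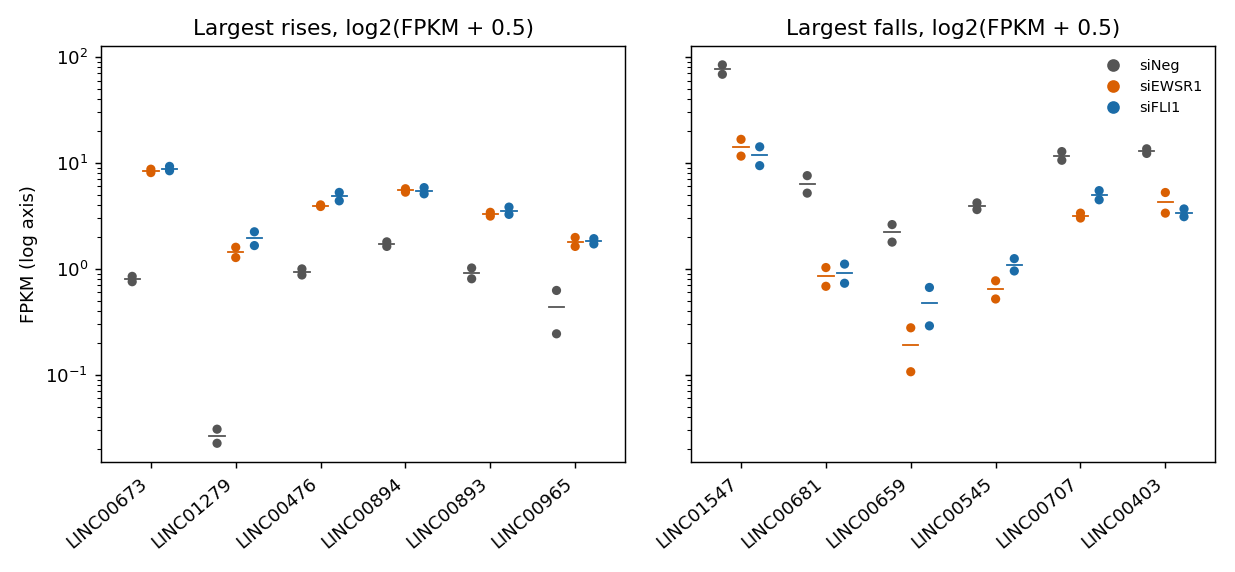
FPKM (log axis) by library of the 6 lincRNAs with the largest rises and the 6 with the largest falls with siEWSR1 among those called with each siRNA; points are libraries and bars are means of 2. Changes are on the log2(FPKM + 0.5) scale, and since the lincRNAs were picked for being called, the gap of the siNeg points is a result of that choice; siNeg means run from 0.0267 FPKM for LINC01279 to 76.5 for LINC01547.

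Loci known to encode short proteins were taken as a list of 13, of which 10 were in the files under their LINC symbol and 6 reached the selection level. With siEWSR1, 2 of the 6 rose and 2 fell, and with siFLI1, 3 rose and 2 fell. Among all genes tested, 33.2% rose and 31% fell with siEWSR1, and 35.7% rose and 29.6% fell with siFLI1. LINC01420 (NBDY) rose by 0.41 (SE 0.06) and 0.54 (SE 0.06). LINC00094 (BRD3OS, beside the chromatin reader gene BRD3) read 6.93 and 7.13 with siNeg, 11.1 and 11 with siEWSR1, and 11.8 and 12.8 with siFLI1, a rise of 0.62 (SE 0.06) and 0.77 (SE 0.06). BRD3, which it overlaps, did not pass the test (-0.04 and 0.04).

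LINC00493 (SMIM26) fell by 0.33 (SE 0.06) with siEWSR1 and by 0.21 (SE 0.06) with siFLI1. The second call was lost after quantile normalization (-0.10, adjusted p 0.143) and without siNeg replicate 1, siNeg replicate 2 or siFLI1 replicate 1 (adjusted p 0.126, 0.069 and 0.142). LINC00116, the gene of mitoregulin (MTLN), a protein of the inner mitochondrial membrane, read 5.93 and 6.5, then 4.82 and 4.28, then 4.86 and 4.88, a fall by 0.41 and 0.32. The siFLI1 call was lost without siNeg replicate 2, siFLI1 replicate 1 or siFLI1 replicate 2 (adjusted p 0.0817, 0.0574 and 0.0562). LINC00998 (SMIM30) did not pass the test, at 15.3 and 14.3, then 11.4 and 13.4, then 13.2 and 15.6. Without siEWSR1 replicate 2 it was called lower with siEWSR1 (-0.36, adjusted p 0.0347). LINC00467 was called only with siFLI1, where it read 2.22 and 3.3 against 1.16 and 0.838 with siNeg (1.11, SE 0.24), and it read 2.32 and 1.41 with siEWSR1 (0.64, adjusted p 0.0531; without siEWSR1 replicate 2, 0.92 and 0.016). The other 4 read at most 0.57 FPKM (LINC00675, LINC00908, LINC00959 and LINC00961). Of a list of 4 host genes of microRNAs, the 2 in the files, LINC00461 and LINC00599, read at most 0.0261 FPKM. LINC00969 was not on that list and was named after its values were seen. RefSeq names it MIR570HG, and it overlaps MIR570. It read 0.693 and 1.24 with siNeg, 1.79 and 1.38 with siEWSR1, and 2.22 and 0.739 with siFLI1, and was not called.

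RefSeq now lists 11 of the 114 as protein-coding, 3 as transcribed pseudogenes and 100 as lncRNA, and 28 carry another symbol there. The 11 include LINC01207 (SMIM31), which fell from 2.55 and 2.06 with siNeg to 1.27 and 0.999 with siEWSR1 and 0.964 and 0.937 with siFLI1 (log2 changes -0.78 and -0.95). They also include LINC01125, which rose from 0.307 and 0.33 to 1.03 and 1.05 with siEWSR1 and to 1.01 and 1.03 with siFLI1 (0.91 and 0.89, or 0.21 and 0.10 after quantile normalization). LINC01125 reached the selection level through the libraries with siRNA against a partner alone, so its test is not independent of its choice. LINC01207 and LINC01125 were named after their values were seen.

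Of 23 lincRNAs chosen as known from cancer studies, 20 were in the files and 10 reached the selection level. With siEWSR1, 2 rose and 4 fell (all genes tested: 33.2% and 31%), and with siFLI1, 4 rose and 5 fell (35.7% and 29.6%). Besides LINC00673, the one that rose with both was LINC00641, which read 3.1 and 3.1 with siNeg, 6.68 and 6.64 with siEWSR1, and 6.16 and 6.7 with siFLI1 (0.99 and 0.94, SE 0.07 each). The siNeg libraries were below all others, and its nearest coding gene HNRNPC, 2237 bases away, did not pass the test. Those that fell with both were LINC00152, LINC00339, LINC00662 and LINC00963.

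LINC00152 fell by 0.74 with each siRNA (SE 0.08). LINC00339, whose locus lies near CDC42 in a region linked to bone density, read 20.9 and 21.1 with siNeg, 13.8 and 13.7 with siEWSR1, and 14.8 and 13.9 with siFLI1, a fall by 0.59 and 0.53 (SE 0.06 each). LINC00963 read 4.51 and 3.89, then 2.75 and 2.5, then 3.01 and 2.59, a fall by 0.59 and 0.51 (SE 0.11 each). LINC00665 did not pass the test, at 6.56 and 6.56, then 6.57 and 5.94, then 7.29 and 6.31. LINC00324 was called only with siFLI1 (0.42, SE 0.14), and quantile normalization turned its sign (-0.17, adjusted p 0.427). That call was also lost when any siNeg or siFLI1 library was left out (adjusted p 0.0554 to 0.15). The other 10 of the list, among them LINC00511 and LINC00312, read at most 0.224 FPKM.

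The siEWSR1 and siFLI1 libraries were then compared with each other, a test in which the siNeg libraries add only to the estimate of the spread. Of the 114 lincRNAs, 2 were higher with siEWSR1 (1.75%, against 0.79% of all genes tested) and 1 was lower (0.877%, against 3.07%), while 111 were not called. The log2 differences ranged from -0.81 to 0.84, with a median SE of 0.11. A p above the threshold does not show that the 2 siRNAs acted alike on the other lincRNAs, and a call with only 1 of them is no sign of a difference between them.

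LINC00176 (chr20:62665697-62671315), which RefSeq does not list as lncRNA, read 1.02 and 1.09 with siEWSR1 and 0.398 and 0.339 with siFLI1, beside 0.339 and 0.328 with siNeg. It passed the selection, which is also the filter of the test, through the siEWSR1 libraries alone, so its test is not independent of its choice. The difference was 0.84 (SE 0.12, adjusted p 0.0237), and its nearest coding gene PRPF6, 1244 bases away, was also higher with siEWSR1 (0.25) and not with siFLI1 (-0.04). Quantile normalization placed LINC00176 lower with siFLI1 than with siNeg (-0.70, adjusted p 0.00386). LINC00632 (chrX:139791924-139854841) was higher with siEWSR1 than with siFLI1 by 0.41 (SE 0.06, adjusted p 0.0241), from 455 to 638 implied fragments in those libraries. The gene CDR1, 10584 bases away, rose with each siRNA (0.72 and 0.73) and did not differ by the test between them (-0.02, adjusted p 0.949).

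LINC01133 (chr1:159931014-159948876), studied in tumour invasion, read 0.974 and 0.841 with siEWSR1 and 2.01 and 1.91 with siFLI1, beside 0.93 and 1.23 with siNeg. The difference was -0.81 (SE 0.13, adjusted p 0.0304), from 29 to 64 implied fragments a library. After quantile normalization it was lower with siEWSR1 than with siNeg (-0.62, adjusted p 0.00432) and no longer called higher with siFLI1 (0.27, adjusted p 0.0798). For all 3 lincRNAs the siEWSR1 and siFLI1 values did not overlap. None of the 3 calls held in a fit of the 4 libraries alone, where the adjusted p was 0.0573 for LINC00176, 0.0634 for LINC00632 and 0.0523 for LINC01133. Leaving out any library other than siEWSR1 replicate 1 also ended all 3 calls.

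**Figure D4:**
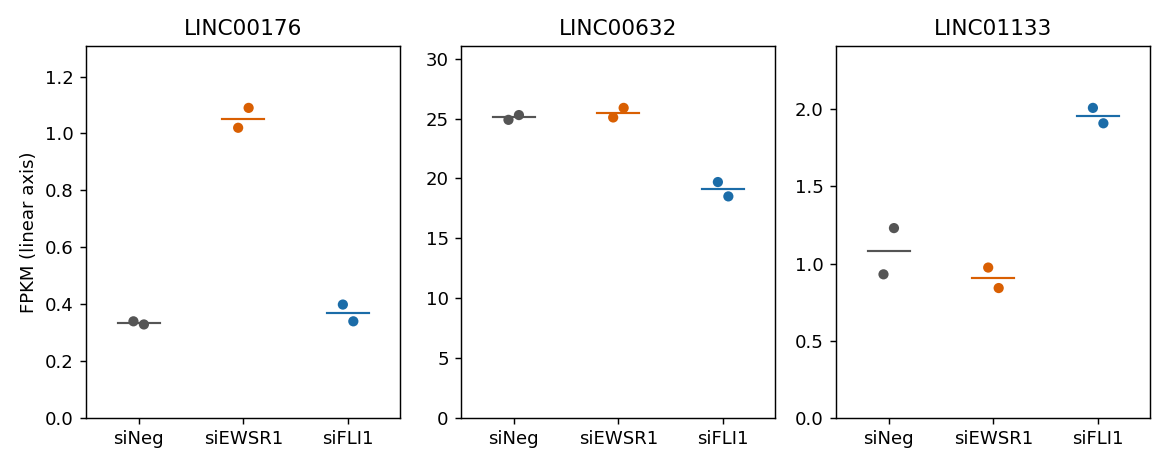
FPKM (linear axis from 0) by group of the 3 lincRNAs called between siEWSR1 and siFLI1; points are the 2 libraries and bars their mean. LINC00176 was high only with siEWSR1, LINC00632 was low only with siFLI1, and LINC01133 was high only with siFLI1.

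By position, the median distance from a lincRNA to the nearest protein-coding gene was 22732 bases. Of the 114, 7 overlapped one, 22 lay within 5 kb of one without overlap, and 25 lay over 100 kb away. The nearest coding gene was tested for 82 lincRNAs, 79 different genes in all. With siEWSR1 the lincRNA and this gene were both called for 33 pairs, 22 of them in the same direction. With siFLI1 this held for 34 pairs, 24 in the same direction. Of these, 25 and 27 pairs lay beyond 5 kb, 16 and 17 of them in the same direction. Among all genes tested, 33.2% rose and 31% fell with siEWSR1, and 35.7% rose and 29.6% fell with siFLI1. The share of such pairs among other neighbouring genes was not computed. Across the 82 pairs, Pearson's r of the log2 changes was 0.36 and 0.34, given as a description. The 2 genes of a pair share libraries and may share fragments, and some pairs share a gene. RefSeq lists LINC01279 under CCDC80 and LINC00341 under SYNE3, so each of these pairs may be 1 gene. They are counted here, and r was not computed without them.

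Pairs within 5 kb that were both called numbered 8 with siEWSR1, 6 in the same direction, and 7 with siFLI1, all 7 in the same direction. Besides LINC01279 with CCDC80 and LINC00403 with SOX1, they included LINC00863 with NUTM2D, LINC00957 with DBNL and LINC00260 with ATP2B4, a calcium pump gene that LINC00260 overlaps. With siEWSR1, the log2 changes of these 3 pairs were 0.70 and 0.83, 0.67 and 0.43, and 0.41 and 0.54. Quantile normalization left LINC00957 at 0.16 and LINC00260 at 0.04 with siEWSR1. LINC01137, 75 bases from the RNase gene ZC3H12A, was called only with siFLI1 (0.41, or -0.05 after quantile normalization), while ZC3H12A rose by 1.33 with each siRNA. The 2 pairs in opposite directions with siEWSR1 were LINC00106 (0.52) with ASMTL (-0.37) and LINC00894 with CXorf40B. LINC00863, LINC00957, LINC00260, LINC01137 and LINC00106 were named after their values were seen. CHD2, 1574 bases from LINC01578, did not pass the test (0.08 and 0.05), while LINC01578 fell by 0.38 (SE 0.07) and by 0.22 (SE 0.07). The second of these calls was lost without siNeg replicate 1 (adjusted p 0.187) or siFLI1 replicate 1 (adjusted p 0.165).

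**Figure D5:**
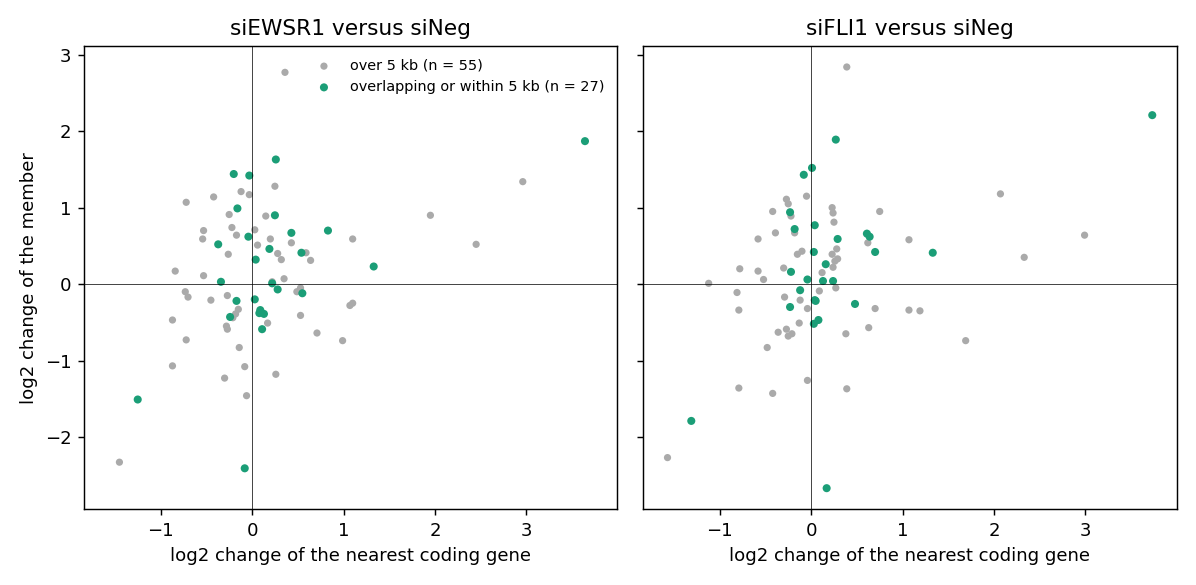
log2 change of each lincRNA (vertical) against that of its nearest protein-coding gene (horizontal) for the 82 pairs with both genes tested, with each siRNA against siNeg; green points are pairs that overlap or lie within 5 kb. LINC01279 with CCDC80, a pair that may be 1 gene, stands at the upper right at 1.87 and 3.64 with siEWSR1. LINC01547 stands at the bottom with FAM207A near 0.

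Long noncoding RNAs that carry other symbols were read as a list of 40, of which 39 were in the files and 26 were tested. With siEWSR1, 9 rose and 7 fell (all genes tested: 33.2% and 31%), and with siFLI1, 9 rose and 8 fell (35.7% and 29.6%). MEG3, an imprinted lncRNA, read 2.5 and 2.27 with siNeg, 19.4 and 18.2 with siEWSR1, and 23.1 and 20.6 with siFLI1 (2.74 and 2.95, SE 0.08 each). RMST, a lncRNA of neural differentiation, was listed at 0 in both siNeg libraries and read 1.77 to 2.59 in the 4 others. It passed the filter of the test through those 4 alone, so its test is not independent of the filter. NORAD, which binds Pumilio proteins, rose by 0.66 and 0.49 (SE 0.11 each). EWSAT1, named for Ewing sarcoma, read 5.4 and 5.4, then 3.81 and 2.87, then 3.41 and 2.79, a fall by 0.63 and 0.72 (SE 0.14 each).

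Markers of other cell types were read in the same libraries. Of 7 fibroblast markers, 4 reached 1 FPKM, and their summed FPKM was 43.7 and 42.6 with siNeg, 58.6 and 53.5 with siEWSR1, and 58.9 and 61.6 with siFLI1. Of 8 blood markers only CD34 reached it, 5 stayed under 0.1 in all 6 libraries, and the sum was 0.402 and 0.335 with siNeg, 2.1 and 2.48 with siEWSR1, then 3.73 and 3.46 with siFLI1. Epithelial markers (3 of 8 at 1 FPKM) summed to 2.63 to 3.87 and endothelial markers (1 of 7) to 17.6 to 27 over the libraries, with overlapping groups. The sums hide opposite changes. Of the fibroblast markers, PDGFRA (3.55 and 3.63), PDGFRB (0.63 and 0.73) and TWIST2 (0.50 and 0.85) rose with siEWSR1 and siFLI1, while THY1, the highest with siNeg at 25.3 and 22.5 FPKM, fell (-0.46 and -0.56). Of the epithelial markers, CLDN4 (1.37 and 1.72) and KRT14 (0.50 and 0.51) rose, and ESRP1 fell (-1.97 with each siRNA). PDGFRA, CLDN4 and KRT14 passed the filter of the test through the libraries with siRNA against a partner alone, and ESRP1 through siNeg alone. The tests of these genes are therefore not independent of the filter. The Ewing sarcoma, fibroblast and blood sums differ between siNeg and both siRNA groups. The endothelial sums differ between siNeg and siEWSR1, and the epithelial sums between siNeg and siFLI1. The part of these cell type markers in the lincRNA changes was not tested.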

How the data were processed

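RNA sequencing of 6 libraries was analysed from gene-level FPKM values that the authors deposited, each with the bounds of a 95% interval. Per the submitters' processing notes, TopHat2 2.0.13, Cufflinks, Cuffdiff and hg19 were used. The sources used here do not give the annotation, the strand setting or the use of multiply mapped reads. Rows of 1 symbol were summed, and file starts were converted to count from 1. Genes at 1 FPKM or more in at least 2 libraries (13043) entered 1 limma 3.58.1 fit (R 4.3.3) of log2(FPKM + 0.5) over all 6 libraries, with a variance trend, 3 residual degrees of freedom and 2-sided tests. The fit was tested on simulated data. A fold change on this scale understates changes of low genes. Fragments were implied from the interval width, taken as 2 standard errors of a count, so depth is approximate. Count tests were not used.

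Named lincRNAs were the 8 with the highest mean, the 6 highest and 6 lowest changes per siRNA among called lincRNAs without overlap of groups, up to 4 each way between the siRNAs, the 3 on either side of the selection level and members of the role lists. Others are named for a motif in the start region, for a RefSeq name, as the neighbour of a named lincRNA, or as chosen after their values were seen. The lincRNAs and lists were chosen with earlier results of these data known. Alternatives covered the pseudocount, filter, scaling, variance model, overlapping genes, replicate block and left-out libraries. Sequences and current names came from RefSeq (GRCh38.p14), where all 114 symbols matched.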

Additional observations from a re-analysis of the deposited data

Results flagged for a closer look

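Of the lincRNAs, 3 were called between the 2 siRNAs by a limma test of the difference itself over 13043 genes. LINC00176 was higher with siEWSR1 than with siFLI1 by 0.84 on the log2 scale (adjusted p 0.0237), LINC00632 was higher by 0.41 (adjusted p 0.0241), and LINC01133 was lower, at -0.81 (adjusted p 0.0304). In each, both libraries of 1 group lay above both of the other. None of the calls held in a fit of the 4 libraries compared (adjusted p 0.0573, 0.0634 and 0.0523) or when any library except siEWSR1 replicate 1 was left out. LINC00176 reached the level needed for the test through the siEWSR1 libraries alone, and RefSeq does not list it as lncRNA.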

How the results depend on the processing

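Of the 58 changes called among 34 named lincRNAs, 47 were called the same way in every other setting that tested them. All 19 settings tested 21 of these, and the rest were dropped by a stricter filter or with overlapping genes in 1 or 2 settings. Quantile normalization lowered the lincRNAs called higher from 45 to 27 with siEWSR1 and from 48 to 27 with siFLI1, with a shift that grew as the level fell. It also turned the siFLI1 change of LINC00176 to -0.70 and of LINC00324 to -0.17. All other settings kept the 4 counts of lincRNAs against siNeg within 1.5 times.

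The comparison of siEWSR1 with siFLI1 was unstable. Its 2 higher lincRNAs became 1 with no filter, a mean of at least 1, an FPKM of at least 2, or only genes RefSeq lists as lncRNA (chosen after seeing the data), 0 with the 4 libraries alone, and 0 to 2 with 1 library left out. Its 1 lower lincRNA became 0 with no filter, an FPKM of at least 2 or the 4 libraries alone, 2 without a variance trend, 4 with a robust one, 5 without overlapping genes, and 0 to 2 with 1 library left out. Over all genes, the 103 higher became 15 with no filter, 68 with a mean of at least 1, 209 with quantile and 159 with median-ratio scaling, 185 with a robust trend, 12 with the 4 libraries, and 3 to 85 with 1 left out. The 401 lower became 73, 640 and 99 with no filter, the robust trend and the 4 libraries, and 2 to 508 with 1 left out. The cause was not tested, other than that fewer libraries leave fewer degrees of freedom.

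Replicate numbers were shared between groups, and deviations of same-numbered libraries correlated only weakly, at -0.137, -0.053 and 0.069. The labels do not say whether same-numbered libraries were handled together, and these correlations cannot decide it. With the replicate block, 45 lincRNAs were higher and 32 lower with siEWSR1, 47 and 33 with siFLI1, and 2 and 1 between the siRNAs, while all genes between the siRNAs came to 57 and 262. With the siNeg numbers crossed, chosen after seeing the data, the lincRNA counts were 46 and 35, 50 and 33, and 2 and 3. Depth limits the low lincRNAs: 34 had a mean under 50 implied fragments.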
